A study of Homo sapiens with 6 samples.

Results

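The zinc finger genes of the short arm of chromosome 19 were taken as the protein-coding genes whose symbol starts with ZNF or ZFP and a digit and whose GRCh37 start on chromosome 19 lies below 26 Mb. This rule found 85 of the 57773 genes in the count table. RNA was sequenced from HEK293, a human embryonic kidney cell line, in 6 libraries, and the study asked what the loss of ZNF146 or ZNF507, zinc finger proteins encoded on the long arm of chromosome 19, does to gene expression. Cells of the EV group received the Cas9 plasmid PX459 without a guide, those of the sgZNF146 group the same plasmid with 4 guides to ZNF146, and those of the sgZNF507 group with 4 guides to ZNF507. All 3 groups were transiently transfected, selected with puromycin for 36 h, grown for 2 weeks in all and sequenced as 2 replicates each. Each sample is thus a pool of cells and not a clone, and the pools that received guides hold differently edited cells.

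C2H2 zinc finger proteins bind DNA through tandem fingers, each of which can contact a few neighbouring bases. Many of those on chromosome 19 also carry a KRAB domain, which recruits the co-repressor TRIM28 and with it the histone methyltransferase SETDB1 and HP1 proteins. The genes multiplied by tandem duplication in clusters, and many of their proteins repress transposable elements. ZNF91, which represses SVA elements, and ZNF93, which represses LINE-1 elements, are both among the 85.

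No zinc finger gene of 19p passed the test in any comparison. Of the 85 genes, 74 had enough counts to be tested, and the number with an adjusted p under 0.05 (edgeR quasi-likelihood test, Benjamini-Hochberg over all 22010 genes tested) was 0 for sgZNF146 against EV, 0 for sgZNF507 against EV and 0 for sgZNF507 against sgZNF146. The share called over all genes was 0.0%, 0.182% and 0.173%, respectively.

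The libraries held 22724439 to 28524025 counts, and sgZNF507 replicate 1 was the smallest. Both replicates of a group are called biological duplicates by the labels. ZNF507 was lower in sgZNF507 than in EV, with 1088 and 1411 counts against 1792 and 2087 (log2 fold change -0.62, SE 0.07, edgeR adjusted p = 0.00195). ZNF146 gave 2860 and 2915 counts in EV and 2517 and 2583 in sgZNF146, which did not pass the test (log2 fold change -0.13, SE 0.08, edgeR adjusted p = 0.9999). In CPM it was 114.9 and 105.4 in EV, 99.2 and 103 in sgZNF146 and 88.4 and 101 in sgZNF507, so that it was no lower with its own guides than with those to ZNF507 (sgZNF507 against EV -0.21, SE 0.08, edgeR adjusted p = 0.9996). Guides act on the coding sequence, and an edited transcript can still be counted, so a count does not measure the loss of the protein. The paper reports both proteins as essentially undetectable by western blot in the targeted cells. It also reports frequent insertions or deletions at the guide sites in RNA reads, which control cells lacked. Of the markers checked, NEFM and INA, neuronal intermediate filament genes known in this line, and PAX2 were present in every library. In contrast, PTPRC of blood cells and ALB of liver had at most 6 counts. NEFL, also on the list of markers, was not matched by symbol and has no values here.

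Read from the tip of the arm, the genes were grouped into runs by the bands 19p13.3, 19p13.2, 19p13.1 and 19p12. The 19p13.2 genes fall on both sides of a wide gap and were split there, after their values were seen, into a distal run of 16 genes (chr19:7069714-9903856) and a proximal run of 26 (chr19:11594242-12750912). The 19p13.3 run had 5 genes (chr19:2819866-2944969), 19p13.1 had 5 (chr19:14800613-20005483) and 19p12, the band next to the centromere, had 33 (chr19:20011722-24312770). The limit between 19p13.1 and 19p12 is that of the band and not a gap between genes. ZNF253 of 19p13.1 ends at 20005483 and ZNF93 of 19p12 starts at 20011722. Within 19p13.1, ZNF333 (chr19:14800613-14844558) lies far from the next member, ZNF101, which starts at 19779605. By strand, 42 genes were on the plus strand and 43 on the minus strand, and both strands were mixed in every run.

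The predicted proteins had a median of 12 fingers, counted as C, 2 residues, C, 12 residues, H, 3 to 5 residues and H. ZNF208 had the most with 36 fingers, followed by ZNF729 with 34 and ZNF91 with 31. A KRAB-A pattern was found in 77 of the 85 proteins. The 8 without it were ZNF358, ZNF414, ZNF121, ZNF653, ZNF491, ZNF714, ZNF676 and ZNF492. The transcript used, the canonical one except in ZNF442, ZNF714 and ZNF43, had 4 exons in 57 genes, the layout typical of KRAB zinc finger genes, in which the fingers lie in a single last exon. An exon number of 4 was found in 27 of 33 genes in 19p12 and 21 of 26 in proximal 19p13.2, but in 1 of 16 in distal 19p13.2. Only exons were counted, and whether the fingers lie in a single exon was not checked in any run.

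Proteins of the 2 largest runs were more alike within their run than between these runs. The median identity over pairs was 58.4% within 19p12 and 47.2% within proximal 19p13.2, while between them it was 34.9%. It was 35.7% within distal 19p13.2 and 38.5% within 19p13.3. The most identical pair was ZNF98 and ZNF492, neighbours in 19p12 with 90.9% identity. ZNF799 and ZNF443, neighbours in proximal 19p13.2, followed with 89.1%. Such likeness limits short reads. The share of 50-base exon sequences found nowhere else in the genome had a median of 93.8% over the 85 genes. It was 52.5% for ZNF98, 53.4% for ZNF492, 66.0% for ZNF443 and 70.0% for ZNF799, and the values of these 4 genes are uncertain. ZNF66 had a share of 72.4%. Reads were sequenced in pairs, and this share takes no account of the mate. Exons of 33 genes overlapped another gene on the same strand and those of 22 genes one on the opposite strand. How the authors' counting treated such reads is not given in the sources used here.

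The promoters showed the runs in letters. RefSeq promoters (GRCh38.p14) were matched for 74 of the 85 genes by symbol, and the 250 bases before the annotated start were searched on both strands. The sequence CCAATCAGG was found in 44 of the 74 promoters (59.5%), against 320 of all 27305 promoters listed (1.17%). It holds CCAAT, the core letters that the transcription factor NF-Y is known to bind. By run, it was in 24 of 27 promoters of 19p12 (88.9%), 15 of 25 of proximal 19p13.2 (60.0%), 3 of 5 of 19p13.3, 2 of 3 of 19p13.1 and 0 of 14 of distal 19p13.2. It was in 0 of 145 promoters of the zinc finger genes of the long arm and in 9 of 419 promoters of other protein-coding genes of 19p (2.15%).

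**Figure D1:**
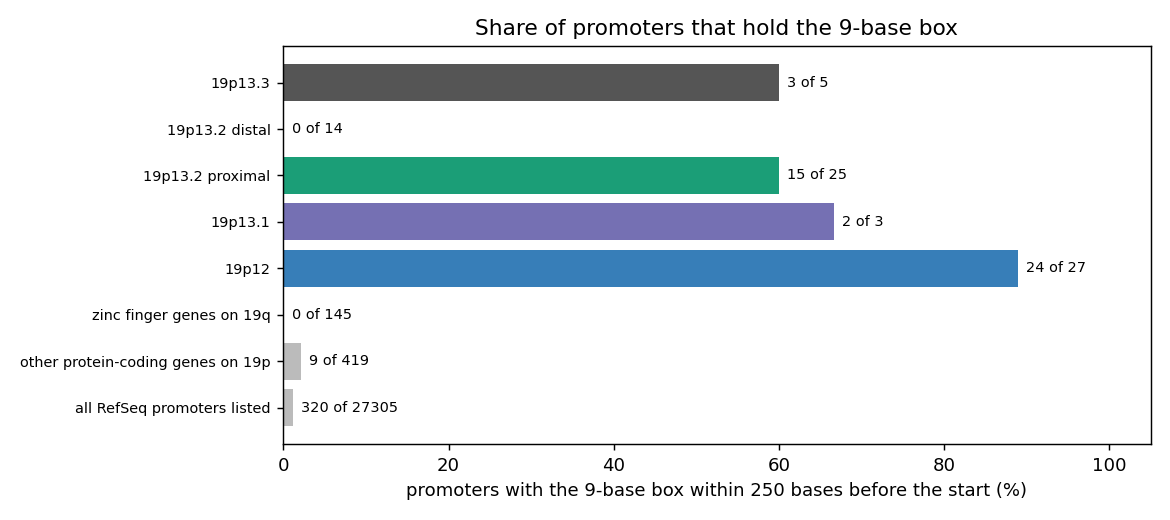
Percent of promoters (x axis) with the shared 9-base sequence within 250 bases before the start, for each run of 19p zinc finger genes and 3 other sets (y axis), with counts beside the bars. The 19p12 bar is the longest at 24 of 27, and both the distal 19p13.2 run and the zinc finger genes of 19q are at 0.

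In 18 of the 27 promoters of 19p12 the shared letters extended to GTCCAATCAGGC, found in 0.106% of all promoters. The 12-base sequences given here were chosen as the most common of their run and the shorter ones after they had been seen, so their shares in the run are descriptions. They began between 60 and 53 bases before the start (median position -59). Of these, 6 are shown 5′ to 3′ in the direction of the gene with the shared 12 bases in capitals, to let the bases around the shared stretch be compared.
ZNF93 (chr19:20011683-20011722, plus strand): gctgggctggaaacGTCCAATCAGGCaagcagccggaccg
ZNF430 (chr19:21203390-21203429, plus strand): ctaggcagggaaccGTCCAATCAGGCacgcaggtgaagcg
ZNF714 (chr19:21264935-21264974, plus strand): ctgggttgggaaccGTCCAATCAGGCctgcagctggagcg
ZNF431 (chr19:21324769-21324808, plus strand): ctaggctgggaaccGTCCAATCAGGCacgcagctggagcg
ZNF724 (chr19:23433225-23433264, minus strand): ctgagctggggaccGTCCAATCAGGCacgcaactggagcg
ZNF91 (chr19:23578308-23578347, minus strand): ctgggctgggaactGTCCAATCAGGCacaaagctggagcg
These positions are on GRCh37 and come from an exact match of the RefSeq sequence. The sequence CTGTCACTCAGG was the other stretch common in 19p12. It was in 18 of 27 promoters of the run and 24 of the 74 in all, against 0.128% of all promoters, at a median position of -125.

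In proximal 19p13.2 the letters after the shared core differed. CCAATCAGGGGC was in 12 of 25 promoters of the run and in 0.0842% of all promoters, starting 130 to 31 bases before the start. The genes shown are those of this set named below for their values and ZNF443, with the 12 bases in capitals.
ZNF627 (chr19:11708190-11708229, plus strand): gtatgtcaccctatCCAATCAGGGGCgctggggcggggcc
ZNF433 (chr19:12146533-12146572, minus strand): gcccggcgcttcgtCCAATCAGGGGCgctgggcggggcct
ZNF443 (chr19:12551931-12551970, minus strand): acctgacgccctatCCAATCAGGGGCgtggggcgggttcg
ZNF709 (chr19:12595648-12595687, minus strand): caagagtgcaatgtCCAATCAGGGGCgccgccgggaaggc
The RefSeq start behind these windows lay within 500 bases of the 5′ end of the GENCODE gene in 28 of the 34 promoters that hold GTCCAATCAGGC in 19p12, CCAATCAGGGGC in proximal 19p13.2 or, as described next, CGGAAGTGACGT in distal 19p13.2 in the direction of the gene. ZNF490 has its match on the other strand and was not counted. ZNF709 and ZNF627 were among the other 6, so that their windows lie inside the annotated gene. ZNF625 and the read-through gene ZNF625-ZNF20 share the same window (chr19:12267587-12267626, minus strand). It is counted for both genes, here and in the counts of CCAATCAGG.

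Distal 19p13.2 did not hold CCAATCAGG. The core CCAAT alone was in 4 of its 14 promoters (28.6%), against 33.0% of all promoters and 27 of 27 in 19p12. Another sequence recurred there. CGGAAGTG, which holds the GGAA core known for ETS factors, was in 7 of its 14 promoters, in 0 of 25 of proximal 19p13.2, in 0 of 27 of 19p12, in 1 of 3 of 19p13.1, in 0 of 5 of 19p13.3 and in 909 of all 27305 (3.33%). It was in 13 of 145 promoters of the zinc finger genes of 19q (8.97%) and in 18 of 419 of the other protein-coding genes of 19p (4.3%). In 5 promoters it ran on to CGGAAGTGACGT, which is in 0.216% of all promoters. The 4 of them whose genes passed the filter are shown with these 12 bases in capitals.
ZNF266 (chr19:9546250-9546286, minus strand): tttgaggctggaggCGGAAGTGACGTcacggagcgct
ZNF121 (chr19:9695211-9695250, minus strand): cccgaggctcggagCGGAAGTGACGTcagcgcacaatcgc
ZNF561 (chr19:9731912-9731951, minus strand): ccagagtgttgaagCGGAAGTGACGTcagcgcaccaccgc
ZNF562 (chr19:9785777-9785803, minus strand): ccggaggctcggagCGGAAGTGACGTc
CG dinucleotides, the sites of DNA methylation, also differed by run. Their median number in 250 bases was 20 in 19p13.3, 15.5 in distal 19p13.2, 12 in proximal 19p13.2, 12 in 19p13.1 and 8 in 19p12, against 11 over all promoters. The promoters of ZNF91 and ZNF121 are printed whole, with each CG in capitals, to show the difference between 7 and 22 such sites.
ZNF91 (chr19:23578274-23578523, minus strand): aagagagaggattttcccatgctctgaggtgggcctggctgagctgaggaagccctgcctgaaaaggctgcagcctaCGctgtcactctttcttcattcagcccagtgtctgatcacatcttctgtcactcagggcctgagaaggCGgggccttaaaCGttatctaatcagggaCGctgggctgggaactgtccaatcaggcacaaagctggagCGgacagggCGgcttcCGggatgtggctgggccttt
ZNF121 (chr19:9695181-9695430, minus strand): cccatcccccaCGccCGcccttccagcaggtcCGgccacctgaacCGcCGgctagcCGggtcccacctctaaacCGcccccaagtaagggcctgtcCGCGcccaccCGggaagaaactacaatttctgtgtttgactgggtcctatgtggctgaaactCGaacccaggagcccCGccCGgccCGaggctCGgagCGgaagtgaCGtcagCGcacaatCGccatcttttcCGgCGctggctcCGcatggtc
A match of letters is a description, and no binding or methylation was measured in these files.

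Levels also varied between runs and widely within them. They are given as CPM, counts scaled to a common library size after TMM normalization, and divided by exon length in kb where genes are compared. In EV, the median level over all members of a run was 3.05 CPM per kb in 19p13.3, 3.13 in distal 19p13.2, 0.616 in proximal 19p13.2, 1.39 in 19p13.1 and 0.549 in 19p12. Within distal 19p13.2 levels ran from 0.00603 to 26, and the split of 19p13.2 was made with these values known. Of the 8 genes with the highest level per kb, 6 lay in distal 19p13.2. Genes with the CCAATCAGG sequence had a median of 0.931 CPM per kb in EV and those without it 1.27, but the order was the opposite within each run that holds both kinds. The medians with and without it were 0.877 and 0.200 in 19p12, 0.714 and 0.616 in proximal 19p13.2, 3.08 and 2.22 in 19p13.3 and 3.57 and 1.39 in 19p13.1. Distal 19p13.2, where no promoter had it, stood at 4.06 over its 14 matched genes. The orders within runs rest on few genes without it, namely ZNF493, ZNF257 and the untested ZNF723 in 19p12, ZNF554 and ZNF555 in 19p13.3 and ZNF333 alone in 19p13.1. In proximal 19p13.2 the levels overlapped, from 0 to 3.68 with it and from 0.173 to 2.78 without.

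ZNF358, whose protein has 9 fingers and no KRAB pattern, was the highest with 26 ± 1.12 CPM per kb (SD, n = 2) in EV. ZNF317, a KRAB zinc finger gene, had 12.8 ± 0.322, ZNF121 had 11.8 ± 0.368 and ZNF414 had 9.79 ± 1.15. The 2 EV libraries of each of these genes lay above both of the next gene, so the order of the first 4 was the same in either library. ZNF724 (8.27 ± 0.164) and ZNF714 (8.16 ± 0.411), both in 19p12, overlapped in EV and cannot be ordered. ZNF266 (5.58 ± 0.176) and ZNF561 (5.04 ± 0.126) came next. Over all tested genes, 50 of the 73 pairs of neighbours in this order overlapped between EV libraries. Without division by length, 6 of these 8 genes stayed among the 8 highest, and ZNF121 came first.

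**Figure D2:**
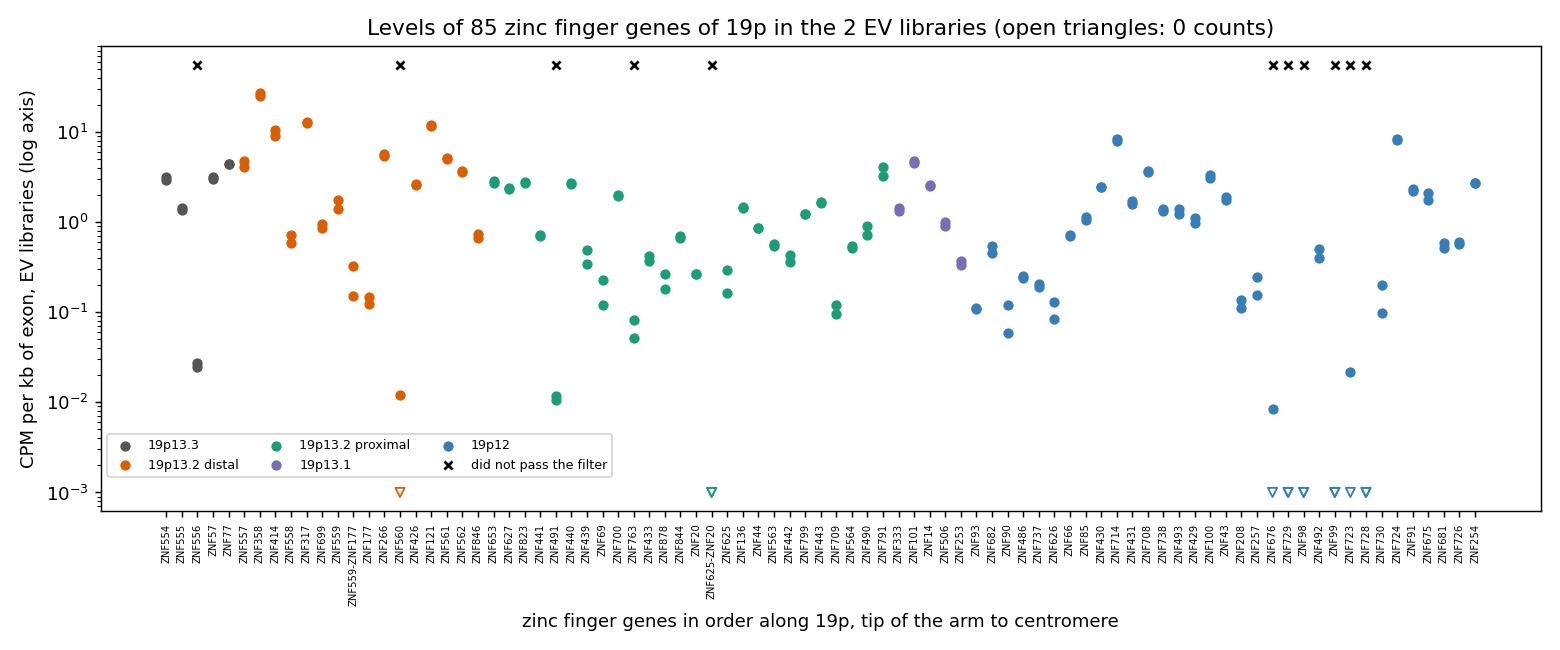
CPM per kb of exon in the 2 EV libraries (y axis, log scale) for the 85 genes in their order along 19p (x axis), coloured by run. ZNF358 in distal 19p13.2 is the highest at 26, and 6 of the 7 genes from ZNF676 to ZNF728 in 19p12, crossed at the top, did not pass the filter.

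At the other end, 11 genes did not pass the filter on low counts. They were ZNF556, ZNF560, ZNF491, ZNF763, ZNF625-ZNF20, ZNF676, ZNF729, ZNF98, ZNF99, ZNF723 and ZNF728, and none had over 7 counts in any library. ZNF729, ZNF99, ZNF728 and the read-through gene ZNF625-ZNF20 had 0 counts in all 6 libraries, which allows up to 3 counts or 0.103 to 0.130 CPM per library. Of these 11 genes, 6 lay in 19p12, and all 6 belonged to a stretch of 7 neighbours from ZNF676 to ZNF728. ZNF492 alone in this stretch passed the filter, with 42 and 59 counts in EV, 69 and 65 in sgZNF146 and 55 and 65 in sgZNF507. ZNF98, its near-identical neighbour, had 0 counts in 4 libraries, 4 in sgZNF146 replicate 2 and 2 in sgZNF507 replicate 2. Neither the guides to ZNF146 nor those to ZNF507 brought a gene of this stretch other than ZNF492 to more than 4 counts.

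The lowest tested genes were ZNF90 (0.0891 ± 0.0420 CPM per kb in EV, SD, n = 2), ZNF626 (0.107 ± 0.0316), ZNF709 (0.108 ± 0.0174), ZNF93 (0.109 ± 0.00157) and ZNF208 (0.124 ± 0.0179). Of these 5, 4 lie in 19p12. ZNF91 stood at 2.26 ± 0.0891 CPM per kb in EV. Thus the SVA repressor ZNF91 and the LINE-1 repressor ZNF93, from the same run and with the same 12 promoter bases, differed in level in every EV library.

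Cells with guides to ZNF146 were compared with EV first. Of the 74 genes tested, 49 had a positive log2 fold change and 25 a negative one, with a median of 0.06 against 0.00 over all 22010 genes. Both sgZNF146 libraries lay above both EV libraries in 28 of the 74 genes, where 14.0% of all genes do, and below in 11, where 14.6% of all genes do. The unadjusted p was under 0.05 in 5 of 74 genes (6.76%) against 2.43% of all genes, and the smallest adjusted p of a member was 0.9999. DESeq2 called 0 members and 0.0% of all genes, and edgeR with the replicate number as a block called 0 members and 0.15% of all genes. Zinc finger genes of 19q, 163 of them tested, had a median of -0.05 in the same comparison, and the 437 other protein-coding genes of 19p tested one of 0.00.

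The largest run median was that of proximal 19p13.2, where 18 of 23 tested genes were positive with a median of 0.14. Over all genes, 10898 of 22010 were positive. In this run both sgZNF146 libraries lay above both EV libraries in 13 genes and below in 1. The shares over all genes were 14.0% and 14.6%. Summed over the run, the level was 128 and 123 CPM in EV, 136 and 135 in sgZNF146 and 132 and 132 in sgZNF507. In 19p12 18 of 27 were positive (median 0.08), and in distal 19p13.2 7 of 15 were (median -0.02). Genes of a run are neighbours with similar sequences and are not independent, and no test was made of the run as a set. In bulk RNA from a pool of edited cells, a change in fewer cells and a smaller change in each cell cannot be told apart.

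ZNF709 (ENSG00000242852, chr19:12571998-12624668), a KRAB zinc finger gene of proximal 19p13.2 with 19 fingers, had the smallest p of all members. It had 17 and 15 counts in EV, 34 and 33 in sgZNF146 and 33 and 26 in sgZNF507. Both edited groups lay above EV without overlap. The log2 fold change was 1.11 for sgZNF146 (95% interval 0.37 to 1.86, unadjusted p = 0.0066 in edgeR, adjusted p = 0.9999) and 0.90 for sgZNF507 (0.15 to 1.66, unadjusted p = 0.0232, adjusted p = 0.9996). The comparisons share the EV libraries. An overlapping same-strand gene, ENSG00000269755, had 20 and 24 counts in EV, 18 and 9 in sgZNF146 and 11 and 21 in sgZNF507, and its part in the count of ZNF709 was not tested.

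The other members with the smallest p among those higher in sgZNF146 were ZNF439 and ZNF627, both KRAB genes of proximal 19p13.2. ZNF439 had 2.57 and 1.77 CPM in EV, 3.31 and 3.14 in sgZNF146 and 3.39 and 2.55 in sgZNF507. The sgZNF146 libraries were above EV, whereas the sgZNF507 libraries overlapped with them (log2 fold change 0.58, SE 0.23 and 0.45, SE 0.23). ZNF627 had 9.0 and 8.79 CPM in EV, 11.2 and 10.9 in sgZNF146 and 8.72 and 10.1 in sgZNF507 (log2 fold change 0.31, SE 0.13 for sgZNF146). The unadjusted p was 0.0281 for ZNF439 and 0.0294 for ZNF627 in edgeR. ZNF737 of 19p12, named after its values were seen because it completes the 5 genes with an unadjusted p under 0.05, had 1.85 and 1.70 CPM in EV and 2.64 and 2.5 in sgZNF146 (log2 fold change 0.54, SE 0.23).

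Among lower genes, the read-through gene ZNF559-ZNF177 (chr19:9434850-9493293), annotated across ZNF559 and ZNF177, came first. It had 16 and 38 counts in EV, 8 and 14 in sgZNF146 and 23 and 28 in sgZNF507. The EV libraries differed from each other more than EV replicate 1 did from sgZNF146, and reads in exons shared with ZNF559 or ZNF177 may not be assigned to it. Its log2 fold change for sgZNF146 was -1.22 (95% interval -2.19 to -0.25, edgeR adjusted p = 0.9999). ZNF738 (log2 fold change -0.16, SE 0.12) and ZNF682 (-0.30, SE 0.22), both of 19p12, had intervals that include 0.

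**Figure D3:**
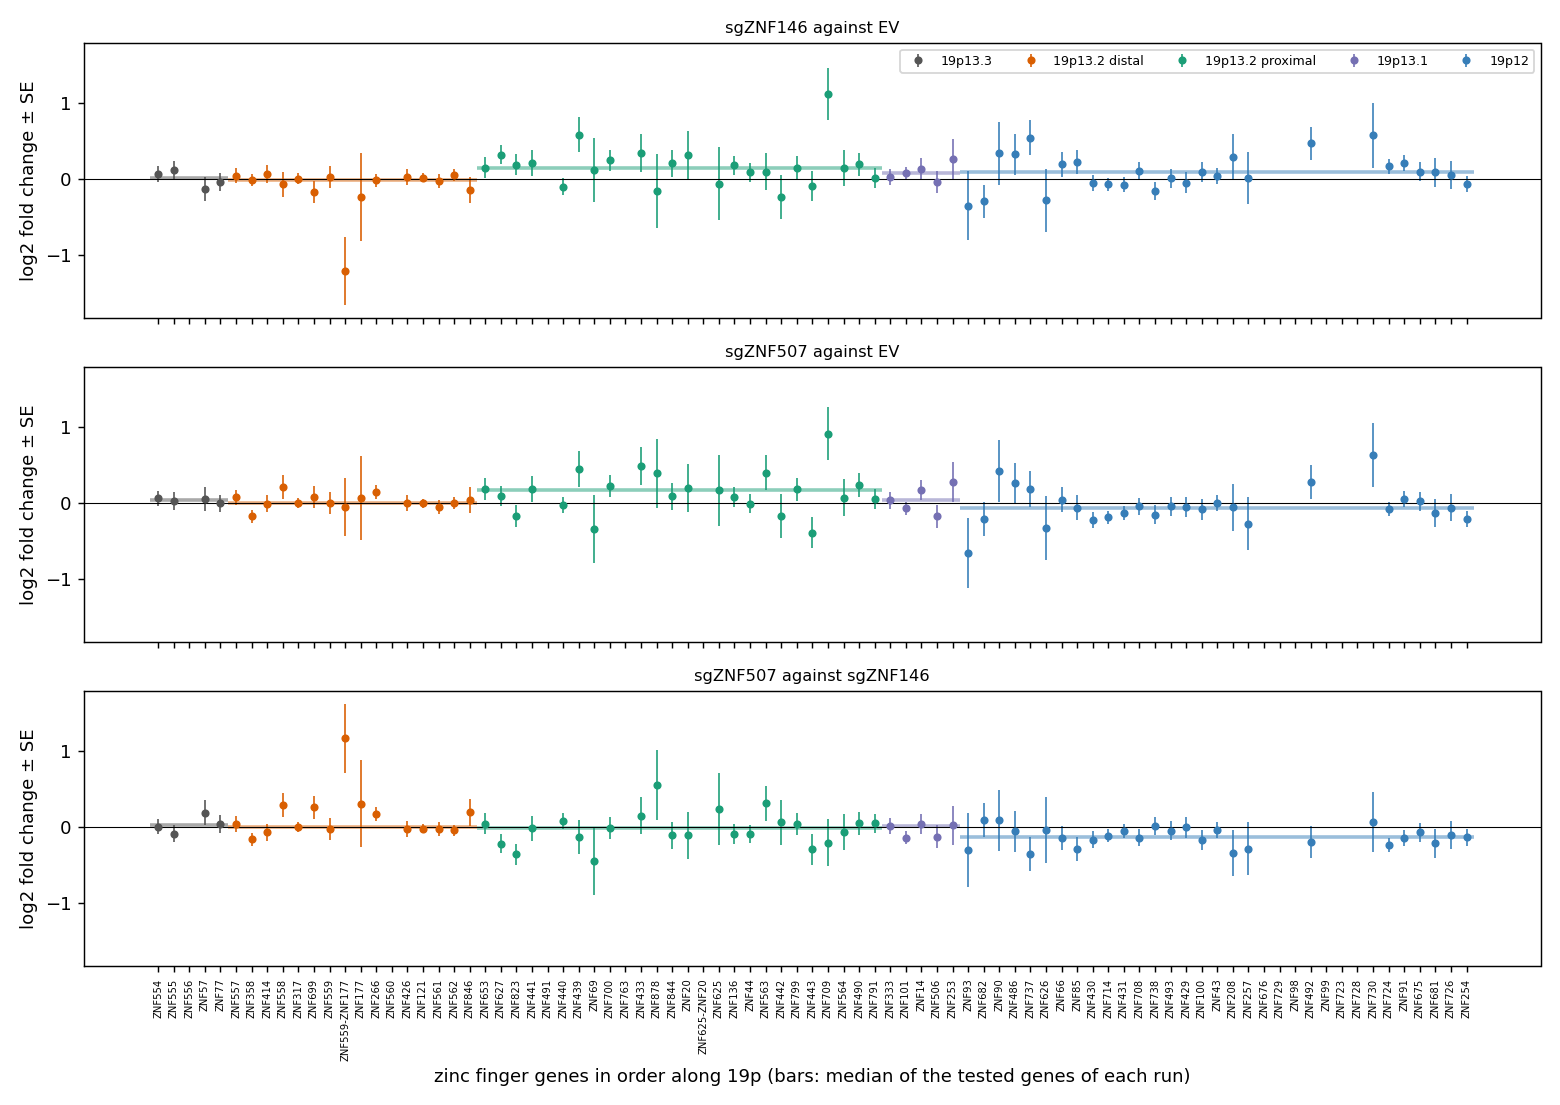
Log2 fold change with its SE (y axis) for the 74 tested genes in their order along 19p (x axis), with a panel for each comparison and a bar at the median of each run. Proximal 19p13.2 has medians of 0.14 and 0.16 against the same EV libraries. The 19p12 median against EV is 0.08 for sgZNF146 and -0.07 for sgZNF507, and no gene passed the test.

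Guides to ZNF507 gave 37 positive and 37 negative log2 fold changes, with a median of 0.01. Both sgZNF507 libraries were above both EV libraries in 15 of 74 genes (20.3%, against 14.0% of all genes). They were below in 11 (14.9%, against 15.3% of all genes). The unadjusted p was under 0.05 in 3 genes (4.05%) against 3.39% of all genes. DESeq2 called 0 members and 0.211% of all genes, and edgeR with the replicate block 0 members and 0.55% of all genes. The members' shares below EV and with an unadjusted p under 0.05 were thus close to the background, while their share above EV was higher than it. Genes elsewhere that passed the test numbered 40.

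The 3 genes with an unadjusted p under 0.05 were ZNF709, ZNF714 and ZNF358. ZNF714, the second most abundant of the 85 transcripts in CPM, had 63.2 and 67.9 CPM in EV, 60.7 and 63.9 in sgZNF146 and 53.2 and 61.3 in sgZNF507. Both sgZNF507 libraries were lower than EV (log2 fold change -0.19, 95% interval -0.37 to -0.01, edgeR adjusted p = 0.9996). ZNF358 had 52.5 and 55.8 CPM in EV, 55.6 and 51.5 in sgZNF146 and 50.2 and 45.4 in sgZNF507 (log2 fold change -0.18, SE 0.08). ZNF430 of 19p12 had 16.7 and 16.9 CPM in EV, 16 and 16.3 in sgZNF146 and 13.5 and 15.1 in sgZNF507 (-0.23, SE 0.11). In these 3 genes the fitted level in sgZNF507 was 0.854 to 0.882 of that in EV. ZNF433, a KRAB gene of proximal 19p13.2, had 1.29 and 1.16 CPM in EV and 1.65 and 1.76 in sgZNF507 (0.49, SE 0.25), and an antisense gene, ZNF433-AS1, overlaps its exons.

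In 19p12, 8 of 27 tested genes were positive in sgZNF507 against EV (median -0.07), and the 2 libraries differed in this. The summed level of the run was 306 and 308 CPM in EV and 311 and 316 in sgZNF146, but 269 in sgZNF507 replicate 1 and 304 in replicate 2. Replicate 1 was the lowest of the 6 libraries in 14 of the 27 genes (51.9%), where it was the lowest in 23.1% of all genes, and replicate 2 was the lowest in 2. Without sgZNF507 replicate 1 the median became -0.01 and 13 of 27 genes were positive. This library also had the fewest counts, and the part of depth was not tested. In proximal 19p13.2 17 of 23 genes were positive (median 0.16), and 16 of 23 were without that library (median 0.17). Over all genes, 10774 of 22010 were positive. Both sgZNF507 libraries lay above both EV libraries in 8 genes of this run and below in 2, where 14.0% and 15.3% of all genes do. The EV libraries are the same as in the comparison of sgZNF146 with EV. Between the edited groups, 10 genes of this run were positive and 13 negative (median -0.02).

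**Figure D4:**
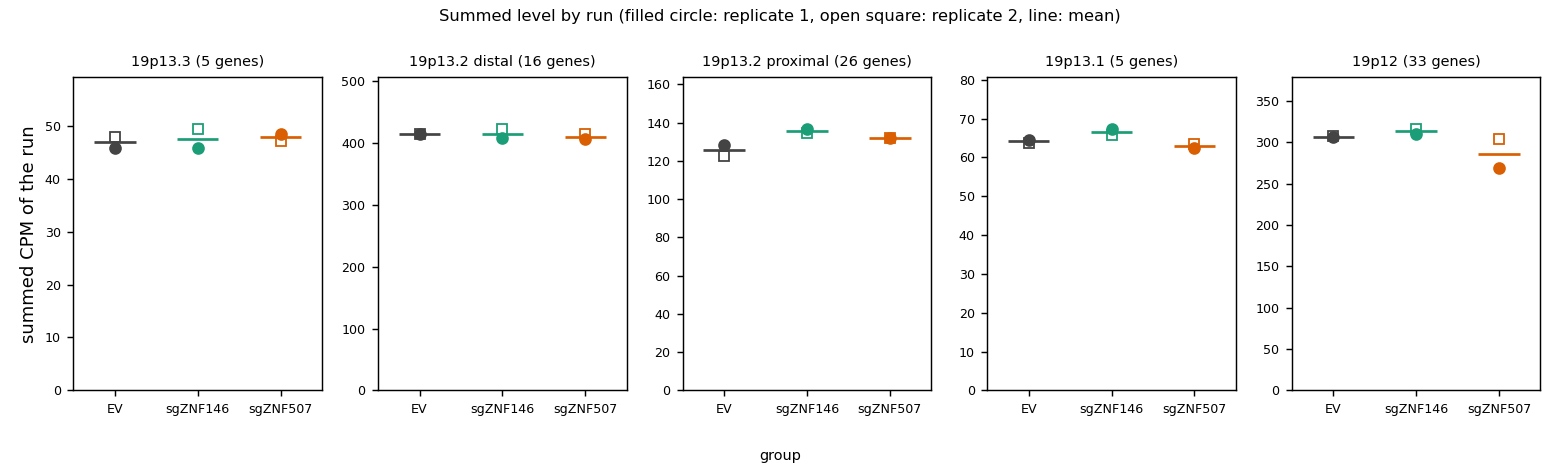
Summed CPM of the genes of each run (y axis, a panel per run) in EV, sgZNF146 and sgZNF507 (x axis), with a point per library and a line at the mean. In 19p12, sgZNF507 replicate 1 is at 269 and the other 5 libraries are at 304 to 316.

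The groups were also compared with each other, which tests whether the effects of the guides differ. Between sgZNF507 and sgZNF146, 26 genes were positive and 48 negative, with a median of -0.05. Both sgZNF507 libraries were above both sgZNF146 libraries in 9 genes (12.2%, against 15.5% of all genes). They were below in 16 (21.6%, against 16.5% of all genes). The unadjusted p was under 0.05 in 3 genes (4.05%) against 4.03% of all genes. DESeq2 called 0 members and 0.192% of all genes, and the replicate block 0 members and 0.891% of all genes. In 19p12 23 of 27 genes were negative (median -0.14). In 9 of these both sgZNF507 libraries lay below both sgZNF146 libraries, where 16.5% of all genes do. Without sgZNF507 replicate 1 that median was -0.03.

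The 3 genes were ZNF559-ZNF177 (log2 fold change 1.16, SE 0.45), ZNF823 and ZNF724. ZNF823, a KRAB gene of proximal 19p13.2, had 7.29 and 8.15 CPM in sgZNF146 and 6.29 and 5.73 in sgZNF507, with EV between them at 6.91 and 6.69 (log2 fold change -0.36, 95% interval -0.67 to -0.06, edgeR adjusted p = 0.9995). ZNF724 of 19p12 had 29.4 and 32.1 CPM in sgZNF146, 24.6 and 27.4 in sgZNF507 and 27.1 and 27.9 in EV (-0.24, SE 0.09). ZNF266 (0.16, SE 0.09) and ZNF558 (0.28, SE 0.16) were the next among higher genes, and their intervals included 0.

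**Figure D5:**
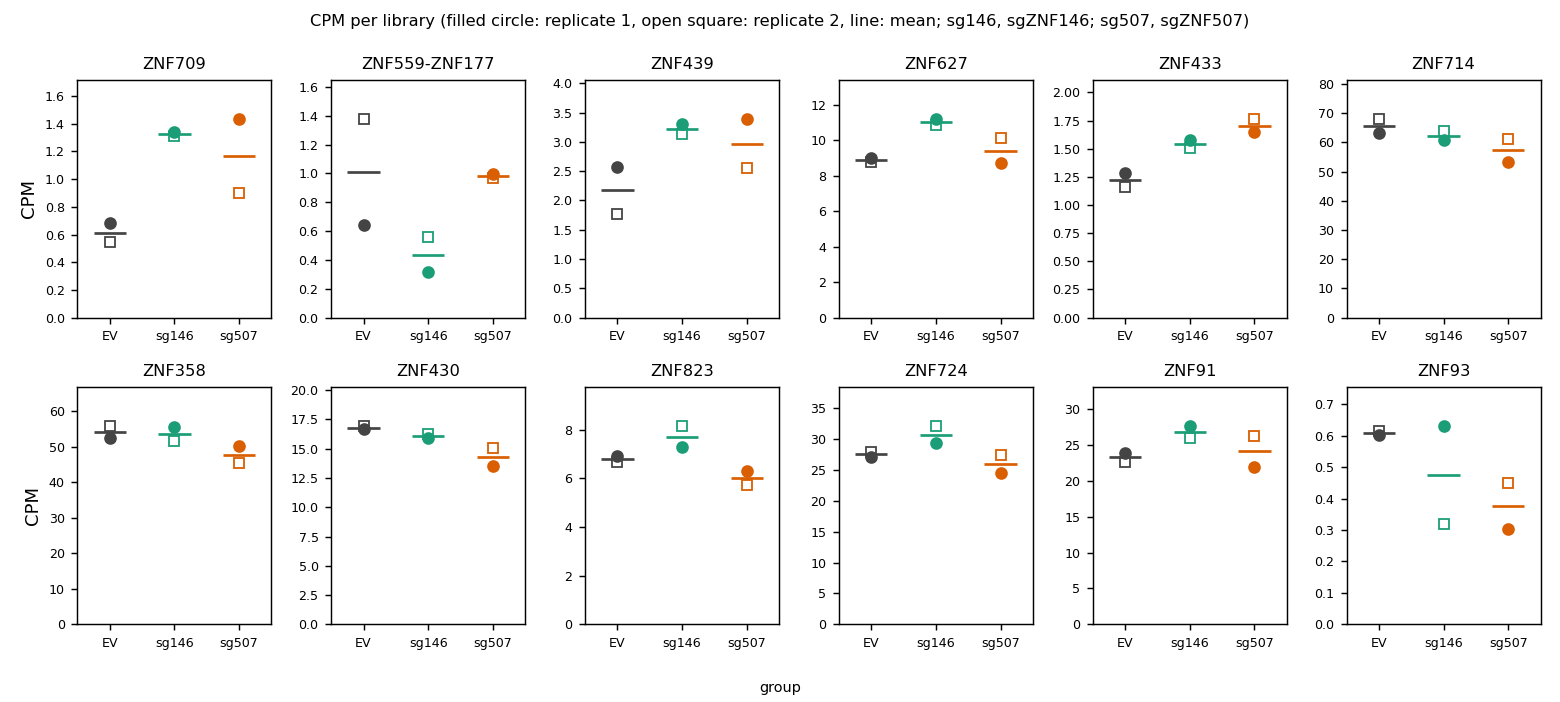
CPM in each library (y axis) by group (x axis) for 12 named genes, with a point per library and a line at the mean. ZNF709 has both edited groups above EV (0.683 and 0.543 CPM in EV), and in ZNF714, ZNF358 and ZNF430 both sgZNF507 libraries lie below EV.

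No member with a described role passed the test. ZNF91 had 23.9 and 22.6 CPM in EV, 27.6 and 26 in sgZNF146 and 22 and 26.2 in sgZNF507. The sgZNF146 libraries were higher without overlap (log2 fold change 0.20, 95% interval -0.02 to 0.43) and the sgZNF507 libraries overlapped with EV (0.05, -0.17 to 0.28). ZNF93 had 15 and 17 counts in EV, 16 and 8 in sgZNF146 and 7 and 13 in sgZNF507. With so few counts its interval for sgZNF507 was -1.67 to 0.34, so that neither direction was detectable at this depth. ZNF675, an inhibitor of TRAF6 signalling, had log2 fold changes of 0.09 (SE 0.12) and 0.02 (SE 0.12) against EV. ZNF431, described as a repressor of PTCH1, had -0.08 (SE 0.09) and -0.14 (SE 0.09), ZNF558, a repressor of SPATA18, -0.07 (SE 0.16) and 0.21 (SE 0.16), and ZNF653, a transcriptional repressor of the non-KRAB kind, 0.14 (SE 0.14) and 0.18 (SE 0.14).

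Precision followed abundance. Genes with at least 3000 counts over the 6 libraries had a median SE of 0.09 for sgZNF146 against EV, and those under 100 counts one of 0.47. For sgZNF146 against EV the 95% interval lay within a 1.5-fold change either way in 49 of 74 genes and within a 2.0-fold change in 62. For sgZNF507 against EV these counts were 50 and 63, and between the edited groups 48 and 67. For ZNF317 and ZNF121 the intervals against EV lay between -0.15 and 0.15. The widest differences between replicates were in low genes, namely ZNF177 in sgZNF507 (4 and 18 counts), ZNF559-ZNF177 in EV (16 and 38) and ZNF730 in EV (8 and 18). The median difference between replicates was 0.10 on the log2 scale in EV, 0.12 in sgZNF146 and 0.16 in sgZNF507.

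Co-repressors and chromatin proteins that KRAB zinc finger proteins use were also measured. UHRF1, also on this list, was not matched by symbol and has no values here. All 27 genes that were matched were tested, and 0 passed in any comparison. Their medians were 0.00 for sgZNF146 and -0.00 for sgZNF507 against EV. TRIM28 had 930 and 941 CPM in EV, 897 and 867 in sgZNF146 and 948 and 886 in sgZNF507 (log2 fold change -0.09, SE 0.06 and -0.03, SE 0.06). SETDB1 had log2 fold changes of 0.01 (SE 0.06) and 0.01 (SE 0.06) and of the HP1 genes CBX1 had -0.01 (SE 0.06) and 0.03 (SE 0.06) and CBX3 0.02 (SE 0.07) and -0.04 (SE 0.07). CBX5, the third HP1 gene, is named after its values were seen because it differed most in the list in sgZNF146 against EV and between the edited groups. It had 339 and 344 CPM in EV, 376 and 412 in sgZNF146 and 310 and 361 in sgZNF507. Both sgZNF146 libraries lay above the other 4, with a log2 fold change of 0.21 (SE 0.08, edgeR unadjusted p = 0.0205, adjusted p = 0.9999) against EV, and sgZNF507 against sgZNF146 gave -0.23 (SE 0.08, unadjusted p = 0.0107, adjusted p = 0.9995). ZNF274, which recruits SETDB1 to zinc finger genes, had -0.01 (SE 0.10) and 0.08 (SE 0.10). The unadjusted p was under 0.05 for 1 of 27 genes in sgZNF146 against EV (CBX5, against 2.43% of all genes), 0 in sgZNF507 against EV (3.39% of all genes) and 3 between the edited groups (CBX5, HDAC1 and MPHOSPH8, against 4.03% of all genes).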

How the data were processed

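Before deposit, the authors trimmed reads, took out ribosomal reads with Bowtie, aligned with TopHat2 (hg19, strand-specific) and assigned reads to Ensembl genes by featureCounts, whose strand and multi-mapping settings are not given in the sources used here. The deposited values are raw counts per gene and library, without normalization. Symbols, positions and exon lengths were taken from GENCODE on GRCh37, which matched 96.1% of the identifiers. Bands follow the UCSC limits for hg19. The members and lists were chosen with earlier results of these data known. Named genes were those with the smallest p in each direction, the highest and lowest levels, the largest replicate differences, read-through genes, the most identical pair and members with a described role.

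Counts were filtered with filterByExpr on the 3 groups, normalized by TMM and tested with glmQLFTest in edgeR 4.0.16 under R 4.3.3, on all 6 libraries, and adjusted over 22010 genes with a threshold of 0.05. SEs come from the F statistic, and 95% intervals use the total degrees of freedom of the fit. Intervals and floors cover the spread between these libraries or counting error, and reads were not collapsed by molecular identifiers. Alternatives were DESeq2 1.42.0, other normalizations and filters, 4 libraries, the replicate block and leaving out each library. Same-numbered libraries deviated together over genes (r of 0.138, 0.176 and 0.145 for the 3 pairs of groups), and the pairing comes from the numbers in the labels. Fingers, KRAB patterns and identities were computed from translated GENCODE coding sequences, since RefSeq proteins were not used here. The edgeR fit was tested on simulated counts, and the other steps were not. Figures were drawn with matplotlib 3.10.9.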

Additional observations from a re-analysis of the deposited data

How the results depend on the processing

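The number of members with an adjusted p under 0.05 was 0 in all 3 comparisons under each of the 13 alternatives, including the replicate block, which changed no call of a member. No named member was called under any alternative. For sgZNF146 against EV the members' median log2 fold change was 0.0551, and it was 0.0462 without a filter, 0.0625 with at least 10 counts in every library, 0.0502 with DESeq2, 0.0619 on the 4 libraries compared and 0.0428 to 0.0829 with each library left out. With the replicate block it was 0.06, 0.01 and -0.04 in the 3 comparisons. For sgZNF507 against EV it was 0.01, and -0.0165 to 0.0263 with each library left out. Between the edited groups it was -0.05, and -0.0738 to -0.0203 with each library left out. All medians kept their sign except that of sgZNF507 against EV, which was -0.00 with at least 10 counts in every library and -0.0165 without sgZNF507 replicate 2. The lower values of 19p12 in sgZNF507 rest largely on replicate 1. Depth limits what can be said of low genes, since for those under 100 counts in all the median 95% interval for sgZNF146 against EV reached 2.02-fold either way. With 2 libraries a group, changes smaller than these intervals were not detectable.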
